A study of Homo sapiens with 36 samples.

Results

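The genes described here encode the nuclear subunits of oxidative phosphorylation. They are the rows of the count tables whose symbols begin with NDUFA, NDUFB, NDUFC, NDUFS or NDUFV followed by a number, with UQCR, with COX4 to COX8, or with ATP5, leaving out symbols that end as pseudogenes do. The rule found 85 rows of 54583, after 109 of 194 matching symbols were dropped for a pseudogene ending. By symbol, 37 belong to complex I, 9 to complex III, 17 to complex IV and 19 to complex V, and 3 are antisense, divergent or read-through rows (UQCRB-AS1, UQCRFS1-DT and ATP5MF-PTCD1). They were studied in MDA-MB-231, a human cell line of triple negative breast cancer, by sequencing of polyA RNA in 36 libraries. The study asked how SHP1705, a compound that stabilizes the circadian repressor CRY2, changes transcription alone and with an inhibitor of the proteasome, MG132 or carfilzomib.

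The libraries form 3 sets with a count table each, and every set holds 4 groups of 3 libraries. In the MG132 set the groups are COMB (10 µM SHP1705 with 100 nM MG132), SHP1705 alone at 10 µM, MG132 alone at 100 nM and the solvent DMSO, all for 8 h. In both carfilzomib sets the groups are COMB (10 µM SHP1705 with 10 nM carfilzomib), SHP1705 at 10 µM, carfilzomib at 10 nM and DMSO, for 8 h in one set and 24 h in the other. All cells were of the same line, grown in RPMI-1640 with serum. Nothing in the labels ties a library to its own culture, although the design text speaks of separate experiments, so p-values measure the spread between libraries, which may be technical. Doses and times differ between the sets, and MG132 and carfilzomib are therefore set side by side and not compared.

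Oxidative phosphorylation couples the oxidation of nutrients to the making of ATP in the inner membrane of mitochondria. Complexes I, III and IV pass electrons from NADH to oxygen and pump protons, and complex V, the ATP synthase, lets the protons flow back through a ring of c subunits to drive its catalytic head. Each of these complexes joins core subunits that carry the chemistry, some of them encoded by mitochondrial DNA, with many small supernumerary subunits encoded in the nucleus. The nuclear genes are switched on in most tissues, with a few muscle, lung or testis forms of complex IV, and promoters of many of them are known targets of NRF1 and of ETS factors such as GABP.

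The 10 markers listed for MDA-MB-231 summed to 5410 to 7660 CPM (counts scaled to a common library size) in all 36 libraries. The 8 luminal markers, mostly KRT19, summed to 285 to 568 CPM in the MG132 set, 110 to 309 CPM with carfilzomib at 8 h and 750 to 946 CPM at 24 h. Among them the receptors ESR1 and PGR were at 0.444 CPM or less in every library of the MG132 set. Their levels in the carfilzomib sets are not given here, and the sums show luminal transcripts in every library. Libraries held 34191153 to 39251609 counts in the MG132 set, 17781035 to 27670810 counts with carfilzomib at 8 h and 18864725 to 34008423 counts at 24 h. The members took 0.524 to 0.676%, 0.669 to 0.865% and 0.746 to 0.821% of the counts of a library in these sets.

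Libraries stood apart in 2 sets. In the MG132 set the fibroblast gene POSTN read 98.3, 222 and 242 CPM in COMB, 0.267, 28.2 and 29.4 CPM in SHP1705, 33.6, 0.161 and 173 CPM in MG132, and 0.255, 0.11 and 0.111 CPM in DMSO. The 9 fibroblast markers summed to 126 to 282 CPM in COMB, 17.7 to 55.1 CPM in SHP1705, 18 to 205 CPM in MG132 and 18.1 to 19.4 CPM in DMSO. In each COMB library the sum exceeded POSTN by more than the whole sum of any DMSO library. Other markers of the list were therefore higher there too, although DCN and THY1 stayed at 0.171 CPM or less in every library of that set. The luminal markers summed to 285 to 310 CPM in COMB and 513 to 568 CPM in the other groups. The part of these markers in the results below was not tested, and results that rest on the POSTN libraries are given with and without them. In bulk RNA, fewer cells of a type and less RNA per cell cannot be told apart.

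In the carfilzomib set at 8 h, the heat shock gene HSPA1A and the clock gene PER3 did not follow the labels. HSPA1A read 892, 12000 and 15100 CPM in the libraries labelled COMB, 19900, 705 and 693 CPM in those labelled SHP1705, 792, 726 and 896 CPM in those labelled carfilzomib, and 14600, 23600 and 23200 CPM in those labelled DMSO. PER3 read 1.92, 7.69 and 8.2 CPM in COMB, 2.25, 9.62 and 7.91 CPM in SHP1705, 6.78, 1.26 and 1.69 CPM in carfilzomib, and 8.19, 2.06 and 1.55 CPM in DMSO, so in every group the library numbered 1 lay apart from the other two. In the MG132 set HSPA1A was at 38900 to 40600 CPM in COMB and 533 to 926 CPM in all other groups, so no library outside COMB came near the COMB level. The 6 genes listed as drug readouts, HSPA1A and PER3 among them, summed to 1010, 1020 and 1360 CPM in the MG132 libraries. They summed to 932 to 1100 CPM in SHP1705 and DMSO. The third MG132 library, the highest of its group here, also had the highest POSTN of that group. The labels were kept as given, and the results at 8 h with carfilzomib come last, by label only.

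The filter on low counts kept 75 of the 85 members among 16591 genes in the MG132 set, 76 among 15577 in the carfilzomib set at 8 h and 76 among 16183 at 24 h. The members left out were near 0. COX4I2 (the lung form of subunit IV) and COX6A2 (a heart and muscle form) had 0 counts in every library of the MG132 set. COX7A1, the other such form, averaged 0.172 CPM in that set, 0.0812 CPM with carfilzomib at 8 h and 0.146 CPM at 24 h. COX6B2 and COX7B2 passed in 1 table each, and COX8C, ATP5MGL and the 3 other rows passed in none. Exons of 45 of the 83 members found in GENCODE v29 overlap another gene, and since the strand setting of the counting is not given in the sources used here, reads of such a member and of its partner cannot be told apart. NDUFA3 (with TFPT), ATP5ME (with MYL5), NDUFA6 (with NDUFA6-DT), NDUFB9 (with TATDN1) and NDUFA2 (with IK) are among them, UQCRH has the near copy UQCRHL, and ATP5F1E, at under 2 CPM, has expressed pseudogenes.

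Promoters of 4 members are shown because NDUFA3, ATP5ME and UQCR11 fell with SHP1705 in the MG132 set and NDUFA4 had the highest log2 fold change of the called members with COMB at 24 h. Each is the 250 bases before the RefSeq gene start (GRCh38.p14), read 5′ to 3′ on the strand of the gene, with matches to the E-box CACGTG, which clock factors bind, the NRF1 motif (GCGC and TGCGC with any base between), the ETS motif CCGGAAG and the antioxidant response motif TGACNNNGC in capitals, searched on both strands. They lie at chr19:54102605-54102854 (plus strand) for NDUFA3, chr4:674277-674526 (minus strand) for ATP5ME, chr19:1605463-1605712 (minus strand) for UQCR11 and chr7:10940154-10940403 (minus strand) for NDUFA4.
NDUFA3: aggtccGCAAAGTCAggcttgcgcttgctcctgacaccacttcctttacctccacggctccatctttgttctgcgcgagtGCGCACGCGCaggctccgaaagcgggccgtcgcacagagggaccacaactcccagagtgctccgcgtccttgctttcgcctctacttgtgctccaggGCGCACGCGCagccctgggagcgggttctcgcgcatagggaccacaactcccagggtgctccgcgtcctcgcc
ATP5ME: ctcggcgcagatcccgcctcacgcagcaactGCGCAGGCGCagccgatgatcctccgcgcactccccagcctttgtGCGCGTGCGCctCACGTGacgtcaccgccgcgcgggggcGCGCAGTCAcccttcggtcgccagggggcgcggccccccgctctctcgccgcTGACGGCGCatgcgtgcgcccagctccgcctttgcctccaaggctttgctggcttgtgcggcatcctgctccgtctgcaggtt
UQCR11: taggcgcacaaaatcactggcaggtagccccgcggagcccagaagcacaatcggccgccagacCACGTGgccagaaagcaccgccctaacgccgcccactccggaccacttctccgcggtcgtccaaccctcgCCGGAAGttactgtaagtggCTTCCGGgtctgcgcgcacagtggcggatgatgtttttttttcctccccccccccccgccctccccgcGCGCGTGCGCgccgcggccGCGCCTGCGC
NDUFA4: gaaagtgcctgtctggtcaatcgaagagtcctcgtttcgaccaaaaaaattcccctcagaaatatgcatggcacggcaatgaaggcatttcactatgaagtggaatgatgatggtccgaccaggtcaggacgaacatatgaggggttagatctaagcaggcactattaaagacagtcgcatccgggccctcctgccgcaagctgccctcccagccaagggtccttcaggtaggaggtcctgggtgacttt
The capitals mark 2 NRF1 matches in each of NDUFA3, ATP5ME and UQCR11, 1 E-box in ATP5ME and in UQCR11, 2 ETS matches in UQCR11, and antioxidant response matches in NDUFA3 and ATP5ME. NDUFA4, which also fell with SHP1705 in the MG132 set, holds none of them. Over windows of 300 bases around the gene start, 81 windows of 68 members were searched beside 35116 windows of all genes. The NRF1 motif was in 19.8% of the members' windows and 5.8% of all, the ETS motif in 24.7% and 10.3%, the E-box in 8.6% and 7.3%, the antioxidant motif in 14.8% and 13.3%, and the heat shock motif (GAA, TTC and GAA with any 2 bases between each) in 0.0% and 0.5%. Of the 28 windows of members that fell with SHP1705 in the MG132 set, 7 held the NRF1 motif, 10 the ETS motif and 5 the E-box. Most of these windows thus held no NRF1 match, unlike those of NDUFA3, ATP5ME and UQCR11. These are letters in a window, and no binding was measured.

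With SHP1705 alone for 8 h, in the MG132 set, many members read a little lower than in DMSO. Of 75 members tested, 30 fell and 0 rose against DMSO (adjusted p under 0.05, the quasi-likelihood test of edgeR, adjusted by Benjamini-Hochberg over all genes, which also gives every adjusted p below). Among all genes 4.08% fell and 3.45% rose. The count of 30 went to 7 with the length trend of each library removed and to 9 without DMSO library 2, as described below. The median log2 fold change was -0.15 over the members and 0.00 over all genes, and 69 of 75 members had a negative one. MG132 alone, set against the same DMSO libraries, had a median of -0.08 over the members, and the part of those shared libraries was not tested. By complex, 10 of 37 fell in complex I, 6 of 9 in complex III, 7 of 11 in complex IV and 7 of 18 in complex V. By role, 1 of 7 core subunits of complex I fell, beside 5 of 6 supernumerary subunits of complex III and 4 of 5 small membrane subunits of complex V. For the catalytic head and central stalk of complex V this was 0 of 5, and for its peripheral stalk 0 of 4. ATP5F1E, among those 5, had few counts, so only a large change could show. The difference between these classes was not tested.

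**Figure D1:**
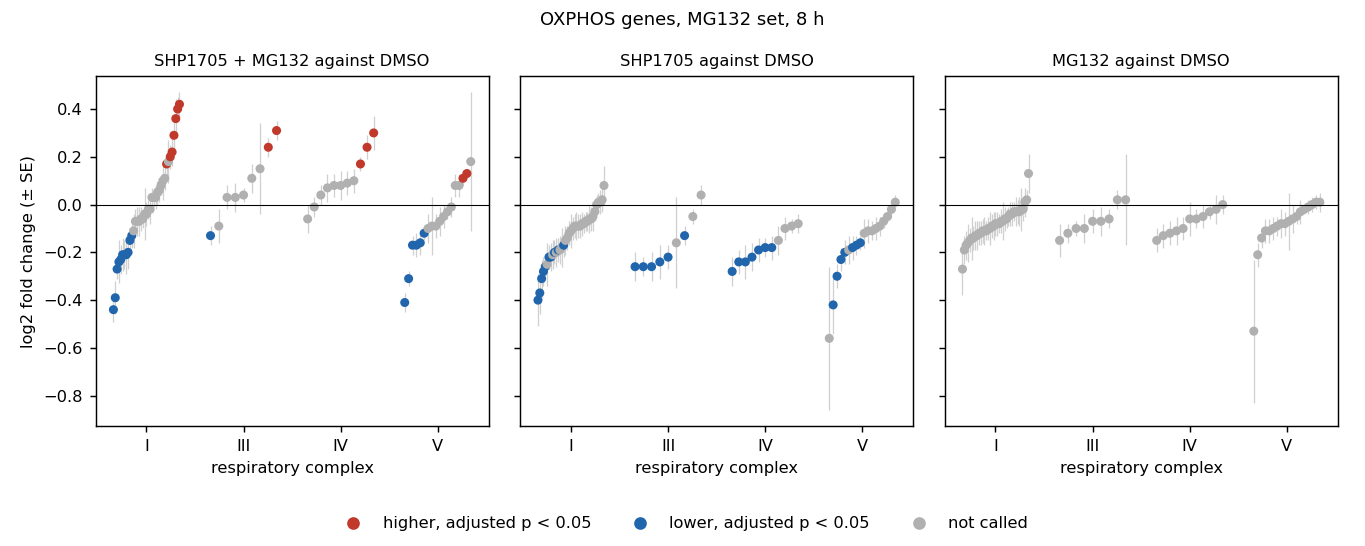
Log2 fold change with its standard error for each of the 75 members tested in the MG132 set, in panels for COMB, SHP1705 and MG132, each against DMSO, and ordered by complex (red, higher; blue, lower; grey, not called). SHP1705 has 30 members lower, MG132 has none called, and COMB has 14 higher and 18 lower, which becomes 0 higher and 62 lower when libraries are scaled by total counts.

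In complex I, NDUFA3, a small membrane subunit, read 42.8, 47.1 and 52.6 CPM in SHP1705, against 58.9, 68.9 and 59.8 CPM in DMSO. No SHP1705 library reached the lowest DMSO library, and the log2 fold change was -0.40 ± 0.11 (standard error; adjusted p = 0.0266). NDUFS6, an accessory subunit of the peripheral arm, had 42, 46.4 and 50.9 CPM in SHP1705, against 55.1, 57.6 and 56.6 CPM in DMSO. It too was lower in every SHP1705 library (-0.28 ± 0.06, adjusted p = 0.00576). NDUFS7, a core subunit that holds an iron-sulfur cluster, changed least among the called members of complex I that did not overlap, with 46.1, 49.4 and 49.8 CPM in SHP1705, against 52.6, 58.5 and 52.6 CPM in DMSO (-0.17 ± 0.05, adjusted p = 0.0475). The core subunits NDUFS1 and NDUFV1, which receive the electrons of NADH, were not called, at 0.00 ± 0.04 (adjusted p = 0.971) and -0.07 ± 0.04 (adjusted p = 0.301).

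In complex III, UQCRH, the hinge protein beside cytochrome c1, read 104, 95.8 and 107 CPM in SHP1705, against 121, 127 and 118 CPM in DMSO. The groups did not overlap (-0.26 ± 0.04, adjusted p = 0.00131). UQCR11, a small supernumerary subunit, had 54, 54.2 and 59.5 CPM in SHP1705, against 63.6, 72.3 and 64.5 CPM in DMSO, again without overlap (-0.26 ± 0.06, adjusted p = 0.00898). The Rieske iron-sulfur protein UQCRFS1 fell by less, with 94, 91.4 and 92.4 CPM in SHP1705, against 103, 98.1 and 102 CPM in DMSO (-0.13 ± 0.04, adjusted p = 0.0313). The core protein UQCRC1 was not called (-0.05 ± 0.03, adjusted p = 0.452).

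In complex IV, COX7C, a small membrane subunit, had 78.9, 73.8 and 80.2 CPM in SHP1705, against 88.5, 102 and 92.3 CPM in DMSO. All 3 SHP1705 libraries lay below DMSO (-0.28 ± 0.06, adjusted p = 0.00432). COX5B, a zinc-binding subunit, read 55.8, 56.7 and 59.8 CPM in SHP1705, against 64.4, 67.6 and 63.2 CPM in DMSO (-0.18 ± 0.05, adjusted p = 0.0195). NDUFA4, named for complex I and found in structures of complex IV, had 53.5, 51.5 and 56.3 CPM in SHP1705, against 59.7, 65.7 and 62.8 CPM in DMSO, a change of -0.22 ± 0.05 (adjusted p = 0.00807). These groups did not overlap either. COX4I1, the largest nuclear subunit (-0.10 ± 0.05, adjusted p = 0.297), and COX7A2L, a factor of supercomplex assembly (-0.09 ± 0.03, adjusted p = 0.0831), were not called.

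In complex V, ATP5ME, subunit e of the membrane part, read 11.4, 9.1 and 14.2 CPM in SHP1705, against 15.6, 16 and 14.9 CPM in DMSO. The third SHP1705 library lay close to DMSO (-0.42 ± 0.12, adjusted p = 0.0343). ATP5MC1 and ATP5MC3, which encode the same mature c-ring protein, changed by -0.17 ± 0.04 (adjusted p = 0.00945) and -0.16 ± 0.03 (adjusted p = 0.00472). ATP5IF1, the inhibitor that blocks the synthase from running backwards, fell by 0.18 ± 0.05 (adjusted p = 0.0393). The catalytic head genes ATP5F1A and ATP5F1B were at 0.01 ± 0.03 (adjusted p = 0.843) and -0.05 ± 0.02 (adjusted p = 0.269).

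The size of the fall went with the length of the transcript, over members and over all genes. Of members under 1000 nt, 24 of 50 fell (48.0%), with a median log2 fold change of -0.18, and of longer members 4 of 23 fell (17.39%), with a median of -0.09. Among all genes 21.46% of 1044 short ones fell, with a median of -0.10, and 3.02% of 12023 longer ones, with a median of 0.01. Spearman's rho between length and log2 fold change was 0.43 over 73 members and 0.31 over 13067 genes, which share these 6 libraries. For MG132 alone against the same DMSO libraries rho was 0.22 over members and 0.28 over all genes. There all short genes had a median of -0.06 and longer ones 0.01, so the trend was not particular to SHP1705. For COMB against DMSO rho was 0.22 over members and 0.08 over all genes. With the length trend of each library removed, 7 members remained lower and the median was -0.04. COX7C (-0.15, adjusted p = 0.0437), NDUFA4 (-0.22, adjusted p = 0.0108) and UQCRFS1 (-0.15, adjusted p = 0.015) were among these 7, whereas NDUFA3 was at -0.19 (adjusted p = 0.245), ATP5ME at -0.20 (adjusted p = 0.294) and UQCRH at -0.12 (adjusted p = 0.0637). The part of transcript length in the result was not tested beyond this fit.

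**Figure D2:**
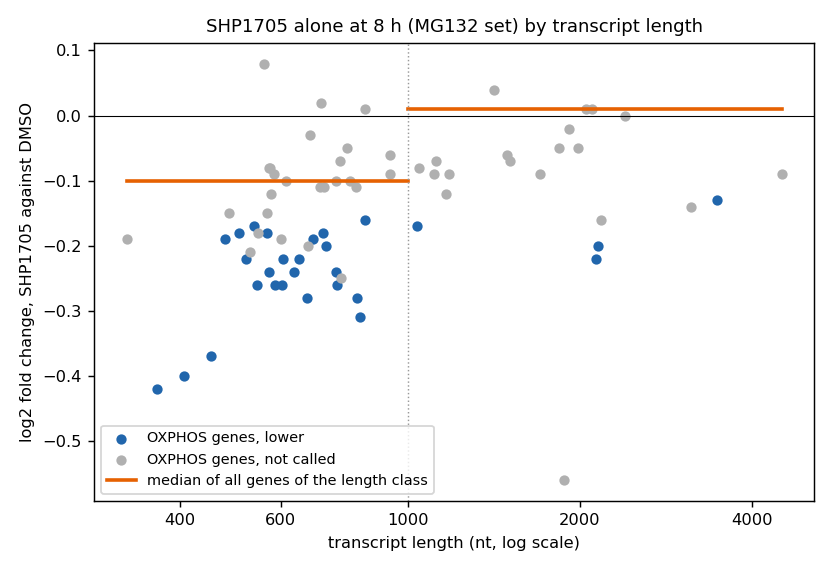
Log2 fold change of SHP1705 over DMSO at 8 h in the MG132 set against transcript length in nt (log axis) for 73 members, coloured by call, with orange lines at the medians of all genes under and over 1000 nt. Short members have a median of -0.18 and long members -0.09, and all short genes have a median of -0.10.

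The count moved when single libraries were left out. Without DMSO library 2 it was 9, without SHP1705 library 1 it was 13, without SHP1705 library 2 it was 15 and without DMSO library 3 it was 19. Without the 4 libraries outside COMB with high POSTN it was 2 with nearly the same median (-0.14), but that fit holds 1 SHP1705 library, assumed to vary like the other groups.

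Other genes of the pathway are read against the same 4.08% of all genes that fell and 3.45% that rose. In complex II, which feeds electrons from succinate, 0 of 4 were called, and of 17 electron carriers and their makers only CYCS, cytochrome c, fell (-0.16 ± 0.04, adjusted p = 0.011). Of the assembly factors, 3 of 19 fell for complex I, 2 of 8 for complex III, 5 of 26 for complex IV and 0 of 5 for complex V, with 0 higher, and NDUFAF8 was at -0.24 ± 0.07 (adjusted p = 0.0375). Of 14 regulators of respiratory genes, ESRRA, a nuclear receptor that acts on many of them, fell (-0.20 ± 0.04, adjusted p = 0.00572) and YY1 rose. Of the 13 subunits encoded by mitochondrial DNA 3 rose and 1 fell, with a median of 0.11.

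At 24 h, in the carfilzomib set, SHP1705 alone changed 1 of 76 members, where 2.51% of all genes fell and 1.95% rose. The median log2 fold change was 0.00 over the members. The 1 member was ATP5F1D, the delta subunit of the synthase's central stalk, with 69.9, 63.2 and 64.4 CPM in SHP1705, against 87.1, 81.2 and 79.5 CPM in DMSO. Every SHP1705 library was lower (-0.33 ± 0.06, adjusted p = 0.00274). NDUFA4 had 73.7, 69.9 and 70.8 CPM in SHP1705, against 74.9, 69.6 and 70.6 CPM in DMSO, and the libraries of the groups lay among each other. Of the 14 regulators 2 fell, among them ESRRA (-0.41 ± 0.07, adjusted p = 0.000315). The difference between 8 and 24 h was not tested.

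MG132 alone changed no member by the test. Of 75 members 0 were called, as were 0 of all genes (0%), 23 members had an unadjusted p under 0.05, and DESeq2 called 0 members and 75 genes. The median was -0.08 and 68 of 75 members had a negative log2 fold change. NDUFA4 read 58.5, 60 and 62.1 CPM in MG132, against 59.7, 65.7 and 62.8 CPM in DMSO, and the groups overlapped.

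Carfilzomib alone for 24 h raised 11 members and lowered 0 of 76, where 10.1% of all genes rose and 11.4% fell. Of the 11, 8 belong to complex I by symbol and 1 each to complexes III, IV and V, and the median over the members was 0.01. NDUFA4 had 106, 113 and 123 CPM in carfilzomib, against 74.9, 69.6 and 70.6 CPM in DMSO. All 3 carfilzomib libraries lay well above DMSO, with means of 114 ± 8.58 CPM in carfilzomib and 71.7 ± 2.8 CPM in DMSO (SD, n = 3), and the log2 fold change was 0.67 ± 0.06 (adjusted p = 8.91e-09). UQCRC2, a core protein of complex III, had 69.9, 66.5 and 70.3 CPM in carfilzomib, against 59.2, 60 and 54.7 CPM in DMSO (0.25 ± 0.06, adjusted p = 0.00267). NDUFB5, a membrane arm subunit, read 81.1, 78.6 and 72.8 CPM in carfilzomib, against 69.1, 64.7 and 65.3 CPM in DMSO (0.22 ± 0.05, adjusted p = 0.00495), and the core subunit NDUFS1 rose by the same 0.22 ± 0.06 (adjusted p = 0.00723). None of these pairs of groups overlapped.

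In complex IV, COX6C had 44, 42.6 and 59.5 CPM in carfilzomib, against 38.5, 39.5 and 41.1 CPM in DMSO. The third carfilzomib library stood far above the other two, and the change of 0.29 ± 0.09 (adjusted p = 0.0229) was 0.13 (adjusted p = 0.209) without it. ATP5PB, subunit b of the synthase's peripheral stalk, had 165, 153 and 186 CPM in carfilzomib, against 141, 142 and 144 CPM in DMSO (0.24 ± 0.06, adjusted p = 0.00479). NDUFA6 was called as well (0.40 ± 0.13, adjusted p = 0.0272), but its DMSO libraries spread over 295, 148 and 211 CPM, against 297, 287 and 277 CPM in carfilzomib. The groups therefore overlapped. Without DMSO library 2, 6 members were called. Among the regulators, PPARGC1B, a coactivator of respiratory genes (1.14 ± 0.27, adjusted p = 0.00394), and POLRMT, the RNA polymerase of mitochondria (0.31 ± 0.06, adjusted p = 0.00107), rose. They were picked from the list, and no direction of the list as a whole is read from them.

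With SHP1705 and MG132 together for 8 h, members were called in both directions, less often than genes at large. Against DMSO 14 of 75 rose and 18 fell, where 29.2% of all genes rose and 29.7% fell, so each share of the members was the smaller. The median was -0.01 over the members and -0.01 over all genes. The balance depended on the fit: without COMB library 3, 23 rose and 15 fell (median 0.04), and with the length trend removed 27 rose and 12 fell (median 0.06). The split ran within complexes: 7 rose and 11 fell in complex I, 2 and 1 in complex III, 3 and 0 in complex IV, and 2 and 6 in complex V. Scaling by total counts in place of TMM factors moved the median of all genes to -0.31 and that of the members to -0.31 and gave 0 higher and 62 lower, so each direction here is measured against the rest of the genes in the same library. The luminal markers were also lower in COMB, at 285 to 310 CPM summed, and the fibroblast markers higher, at 126 to 282 CPM, and their part was not tested.

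NDUFB9, a membrane arm subunit of complex I, had 23.6, 24.9 and 25 CPM in COMB, against 18, 18.6 and 18.2 CPM in DMSO. The groups were far apart (0.42 ± 0.05, adjusted p = 1.29e-06, and 0.12, adjusted p = 0.0548, with total counts). NDUFA4 read 86.2, 84.3 and 77.9 CPM in COMB, against 59.7, 65.7 and 62.8 CPM in DMSO (0.40 ± 0.05, adjusted p = 5.28e-07, and 0.10, adjusted p = 0.0867, with total counts). UQCRC2 had 89, 85.2 and 86.2 CPM in COMB, against 73.1, 70.3 and 66.8 CPM in DMSO (0.31 ± 0.04, adjusted p = 2.47e-06, and 0.01, adjusted p = 0.922, with total counts). All 3 genes were higher in every COMB library than in any DMSO library on the TMM scale. COX6C had 57, 56.8 and 50.3 CPM in COMB, against 41.5, 44.6 and 46.7 CPM in DMSO (0.30 ± 0.07, adjusted p = 0.000688), with no change left under total counts (0.00, adjusted p = 0.984). COX7A2L (0.17 ± 0.03, adjusted p = 0.000139) and ATP5F1B, the catalytic beta subunit (0.13 ± 0.02, adjusted p = 8.23e-05), rose on the TMM scale and turned to -0.13 and -0.18 under total counts.

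Among the members that fell, the 3 genes of the c-ring moved together. ATP5MC1 had 43.5, 43.3 and 41.1 CPM in COMB, against 57.1, 56.7 and 55.4 CPM in DMSO (-0.41 ± 0.04, adjusted p = 3.64e-08). ATP5MC3 had 119, 119 and 113 CPM in COMB, against 145, 148 and 143 CPM in DMSO (-0.31 ± 0.03, adjusted p = 5.92e-08), and ATP5MC2 changed by -0.17 ± 0.04 (adjusted p = 0.000689). For ATP5MC1 and ATP5MC3 the highest COMB library lay well under the lowest DMSO library. NDUFV3, a small subunit of the NADH-binding module, had 21.1, 21.6 and 21 CPM in COMB, against 28.8, 28.2 and 29.4 CPM in DMSO, again without overlap (-0.44 ± 0.05, adjusted p = 2.91e-07). NDUFS8, a core iron-sulfur subunit, fell by 0.27 ± 0.04 (adjusted p = 2.32e-05), UQCRFS1 by 0.13 ± 0.04 (adjusted p = 0.00373), ATP5IF1 by 0.16 ± 0.05 (adjusted p = 0.0147) and the catalytic alpha subunit ATP5F1A by 0.12 ± 0.03 (adjusted p = 0.00232). COX4I1 (0.09 ± 0.05, adjusted p = 0.144), COX5B (0.10 ± 0.05, adjusted p = 0.0808), NDUFS1 (0.08 ± 0.04, adjusted p = 0.066), NDUFV1 (-0.02 ± 0.04, adjusted p = 0.719) and UQCRC1 (0.04 ± 0.03, adjusted p = 0.328) were not called.

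**Figure D3:**
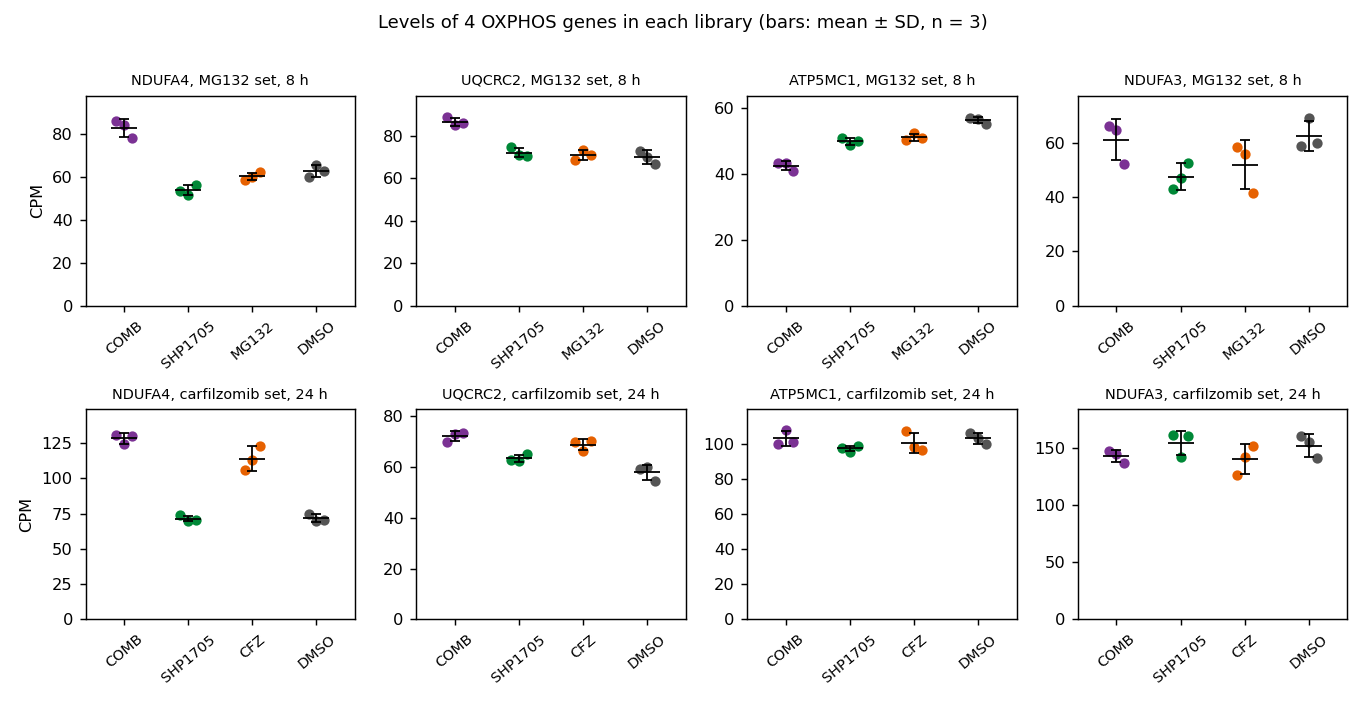
Level in CPM of NDUFA4, UQCRC2, ATP5MC1 and NDUFA3 in each library of the MG132 set at 8 h and the carfilzomib set at 24 h, by group, with mean and SD. NDUFA4 is at 77.9 to 86.2 CPM in COMB and 51.5 to 65.7 CPM in the other groups of the MG132 set, and at 24 h it is at 106 to 131 CPM in COMB and carfilzomib and 69.6 to 74.9 CPM in SHP1705 and DMSO.

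Against MG132 alone, which shares the inhibitor, COMB had 28 members higher and 9 lower, where 28.2% of all genes were higher and 28.9% lower. The median was 0.08. By complex 13 rose and 5 fell in complex I, 4 and 0 in complex III, 7 and 0 in complex IV, and 4 and 4 in complex V, the c-ring genes being 3 of the 4 that fell there. Total counts gave 2 higher and 55 lower, and leaving out the POSTN libraries gave 15 and 8 with the median still at 0.08, in a fit that holds 1 MG132 library. NDUFB9 had 23.6, 24.9 and 25 CPM in COMB, against 17.3, 18.3 and 18 CPM in MG132 (0.46 ± 0.05, adjusted p = 4.68e-07), and NDUFA4 was 0.46 ± 0.05 higher (adjusted p = 8e-08). Both stayed higher with total counts, at 0.14 (adjusted p = 0.0247) and 0.15 (adjusted p = 0.0129). COX6C had 57, 56.8 and 50.3 CPM in COMB, against 40.1, 46 and 41.8 CPM in MG132, a difference of 0.36 ± 0.07 (adjusted p = 0.000137) that was 0.05 with total counts. ATP5MC1 had 43.5, 43.3 and 41.1 CPM in COMB, against 50.3, 52.4 and 51 CPM in MG132 (-0.27 ± 0.04, adjusted p = 9.91e-06), and NDUFV3 was lower as well (-0.35 ± 0.05, adjusted p = 5.43e-06).

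The effect of SHP1705 differed with and without MG132 at 8 h. The interaction term, the log2 change of COMB over MG132 minus that of SHP1705 over DMSO, was positive for 41 members and negative for 3, where it was positive for 24.7% and negative for 24.2% of all genes. Its median was 0.23 over the members, and the complexes had 18 positive and 2 negative, 7 and 0, 9 and 0, and 7 and 1 in the order I, III, IV and V. NDUFA4 had a term of 0.68 ± 0.07 (adjusted p = 7.47e-08), COX6C of 0.60 ± 0.10 (adjusted p = 3.04e-05) and UQCRH of 0.56 ± 0.06 (adjusted p = 2.8e-07), and for these 3 it stayed positive with total counts, at 0.35, 0.27 and 0.23. With total counts the split of members became 5 positive and 31 negative, with a median of -0.34 over all genes and -0.11 over the members, and with the length trend removed it was 37 and 9. Of the 30 members that fell with SHP1705 against DMSO, 15 rose in COMB against MG132 (50% of the 30, 53.6% of the 28), and these comparisons share no library. Over all genes 324 of 677 did so (47.9%). With total counts 2 members in all were higher in COMB than in MG132.

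Other genes of the pathway were called in both directions in this combination, as were 29.2% (higher) and 29.7% (lower) of all genes. All 6 called assembly factors of complex III, of 8, fell against DMSO, with UQCC3, which stabilizes cytochrome b, at -1.37 ± 0.22 (adjusted p = 1.83e-05). For complex IV 7 of 26 rose and 9 fell. COX19, a copper metallochaperone, was at 1.38 ± 0.07 (adjusted p = 7.04e-13) and LRPPRC, which stabilizes mitochondrial messages, at 0.63 ± 0.03 (adjusted p = 9.81e-13). For complex I 5 of 19 rose and 6 fell, for complex V 0 of 5 rose and 1 fell, and in complex II SDHD rose and SDHA fell. Of the 17 electron carriers and their makers 5 rose and 10 fell, among those that fell COQ9 of coenzyme Q synthesis (-0.65 ± 0.05, adjusted p = 3.02e-09) and the glycerol phosphate dehydrogenase GPD2 (-0.61 ± 0.04, adjusted p = 3.24e-10). Of the 14 regulators 8 rose and 4 fell, with GABPB1, the partner of the ETS factor GABPA, at 0.77 ± 0.05 (adjusted p = 8.86e-11), the mitochondrial transcription factor TFB2M at 0.72 ± 0.05 (adjusted p = 5.63e-10) and ESRRA at -0.53 ± 0.04 (adjusted p = 1.66e-09). Of the 13 subunits encoded by mitochondrial DNA 5 rose and 0 fell. With total counts these 13 had 0 higher and 12 lower, the regulators 3 and 8, the carriers 2 and 14, complex II 0 and 4, and the assembly factors 1 and 14, 0 and 8, 2 and 18, and 0 and 3 for complexes I, III, IV and V.

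SHP1705 together with carfilzomib for 24 h raised 16 members and lowered 3 of 76, where 13% of all genes rose and 14.3% fell, and the median was 0.04. The luminal markers summed to 912 to 946 CPM in COMB and 786 to 798 CPM in DMSO, and their part in the result was not tested. Complex I had 9 higher and 0 lower, complex III 2 and 0, complex IV 3 and 1, and complex V 2 and 2. The count was 10 without COMB library 3 (7 higher and 3 lower), 11 without DMSO library 2 (7 and 4) and 29, with 23 higher and 6 lower, when the 2 groups alone were fitted. NDUFA4 had 131, 124 and 130 CPM in COMB, against 74.9, 69.6 and 70.6 CPM in DMSO. Its means were 128 ± 3.47 CPM in COMB and 71.7 ± 2.8 CPM in DMSO (SD, n = 3), far outside the spread of either, and it rose by 0.84 ± 0.06 (adjusted p = 1.25e-10). UQCRC2 had 70, 73.2 and 73.6 CPM in COMB, against 59.2, 60 and 54.7 CPM in DMSO (0.32 ± 0.06, adjusted p = 0.000157), and COX6C had 49.3, 48.1 and 49.3 CPM in COMB, against 38.5, 39.5 and 41.1 CPM in DMSO (0.30 ± 0.09, adjusted p = 0.0151). Neither pair of groups overlapped. NDUFB5 (0.32 ± 0.05, adjusted p = 0.00012) and COX7A2L (0.19 ± 0.05, adjusted p = 0.0122) rose as well. The testis form COX6B2, at a mean of 0.318 CPM in this set, had a log2 fold change of 0.86 ± 0.66 and was not called (adjusted p = 0.376).

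The 3 members that fell were in complexes IV and V. COX8A, a small subunit of complex IV, had 156, 156 and 167 CPM in COMB, against 196, 189 and 183 CPM in DMSO (-0.25 ± 0.05, adjusted p = 0.000739). ATP5MC2, the c-ring gene that changed least at 8 h, had 65, 71.7 and 65.1 CPM in COMB, against 82.9, 87.9 and 76.2 CPM in DMSO (-0.29 ± 0.07, adjusted p = 0.00167). ATP5F1D had 70.3, 71.6 and 72.1 CPM in COMB, against 87.1, 81.2 and 79.5 CPM in DMSO (-0.21 ± 0.06, adjusted p = 0.0157). In each the highest COMB library lay below the lowest DMSO library. NDUFS1, NDUFV1, UQCRC1, UQCRFS1, COX4I1, COX5B, ATP5F1A, ATP5F1B and ATP5IF1 were not called, with log2 fold changes of -0.11 to 0.12.

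**Figure D4:**
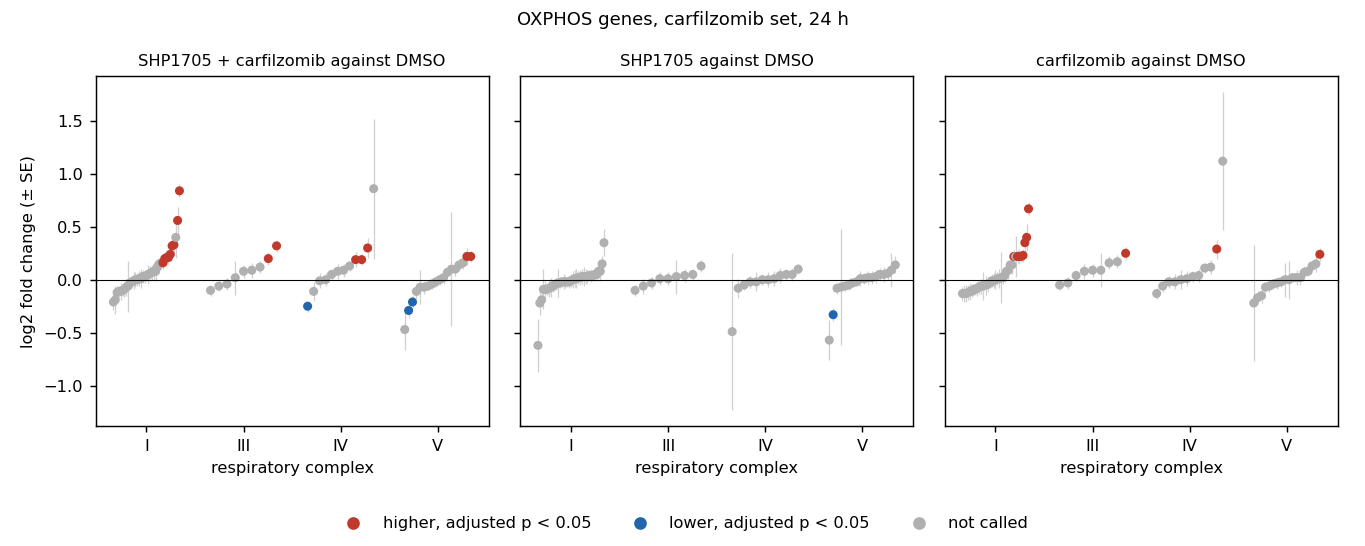
Log2 fold change with its standard error for each of the 76 members tested in the carfilzomib set at 24 h, in panels for COMB, SHP1705 and carfilzomib, each against DMSO, and ordered by complex (red, higher; blue, lower; grey, not called). COMB has 16 members higher and 3 lower, SHP1705 has 1 lower, carfilzomib has 11 higher, and NDUFA4 stands highest of the called members with COMB (0.84) and with carfilzomib (0.67); the wide bar in complex IV above it is COX6B2, which was not called.

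COMB differed from carfilzomib alone in 1 member at 24 h, where 4.36% of all genes were higher and 4.67% lower. This was COX6A1, with 234, 256 and 254 CPM in COMB, against 223, 234 and 186 CPM in carfilzomib, 1 library of each at 234 CPM (0.21 ± 0.07, adjusted p = 0.0451). Without CFZ library 2 it was 5 members, and without COMB library 2 or 3, or DMSO library 1 or 3, it was 0. The interaction term was called for 0 members, where it was positive for 0.21% and negative for 0.272% of all genes, with 4 members at an unadjusted p under 0.05 and 0 called by DESeq2. All contrasts with DMSO in a table share its 3 DMSO libraries, so COMB, SHP1705 and the inhibitor are not independent of one another there.

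Of the other genes of the pathway at 24 h, where the shares over all genes were 13% higher and 14.3% lower, complex II had 3 higher and 1 lower of 4 in COMB against DMSO, with the iron-sulfur subunit SDHB at 0.23 ± 0.06 (adjusted p = 0.00338) and the flavoprotein SDHA at -0.18 ± 0.05 (adjusted p = 0.00665). Assembly factors had 4 higher and 2 lower of 19 for complex I, 0 and 2 of 8 for complex III, 4 and 0 of 25 for complex IV, and 2 and 2 of 5 for complex V. TTC19, which clears fragments of the Rieske protein from complex III, was at -0.51 ± 0.07 (adjusted p = 3.89e-06) in COMB and -0.40 ± 0.07 (adjusted p = 0.000135) in carfilzomib. POLRMT, picked from the list of regulators, was at 0.55 ± 0.06 (adjusted p = 6.93e-07) in COMB, and no direction of that list is read from it.

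The combination was set against DMSO in 2 sets that share no library, with different inhibitors and times. Of the members that rose in them, 8 did so in both: COX6A1, COX6C, COX7A2L, NDUFA4, NDUFA6, NDUFB9, UQCRC2 and UQCRH. They are 57.1% of the 14 at 8 h with MG132 and 50% of the 16 at 24 h with carfilzomib. Over all genes, 25.5% of 4592 and 56.3% of 2084 rose in both. ATP5F1D and ATP5MC2 fell in both, and NDUFA8 fell at 8 h and rose at 24 h. With total counts 0 members were called higher and 62 lower in the MG132 set. None of the 8 therefore kept its call there, and COX7A2L turned negative.

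In the carfilzomib set at 8 h, the labels gave 0 members called for SHP1705 against DMSO, for COMB against DMSO, for COMB against carfilzomib and for the interaction term, with 0% of all genes called in each. At an unadjusted p under 0.05 these had 2, 0, 0 and 5 members, and DESeq2 called 0 in each. Carfilzomib against DMSO had 1 member higher and 1 lower, where 11.7% of all genes were higher and 11.3% lower. NDUFV3 had 31.5, 27.5 and 26.2 CPM in the libraries labelled carfilzomib, against 21.6, 15.6 and 14.9 CPM in those labelled DMSO (0.71 ± 0.20, adjusted p = 0.04). NDUFA5 had 62.1, 71.9 and 62.6 CPM in those labelled carfilzomib, against 76.7, 87.7 and 89.5 CPM in those labelled DMSO (-0.37 ± 0.12, adjusted p = 0.0476). Neither pair overlapped. NDUFA4 read 109, 122 and 121 CPM in the libraries labelled COMB, 168, 83.5 and 113 CPM in SHP1705, 108, 101 and 91 CPM in carfilzomib and 116, 172 and 158 CPM in DMSO. Its highest value by label stood in DMSO and its widest spread in SHP1705, and this was the set whose libraries went against their labels.

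These counts rest on which libraries enter. The 2 members for carfilzomib became 0 without any 1 carfilzomib library or DMSO library 2 or 3, 8 without SHP1705 library 1, 7 without DMSO library 1 and 4 without COMB library 1. Without SHP1705 library 1, SHP1705 against DMSO had 7 and the interaction 6. Without the libraries labelled SHP1705 1 and COMB 1, the counts were 12 (3 higher and 9 lower) for carfilzomib against DMSO, 10 (1 and 9) for SHP1705 against DMSO, 0 for COMB against DMSO, 1 for COMB against carfilzomib and 12 (10 and 2) for the interaction. Without the library numbered 1 of each group they were 35 (3 and 32), 31 (3 and 28), 16 (2 and 14), 4 and 29 (26 and 3) in the same order. No direction is read from this set, since the labels could not be checked from outside the data.

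**Figure D5:**
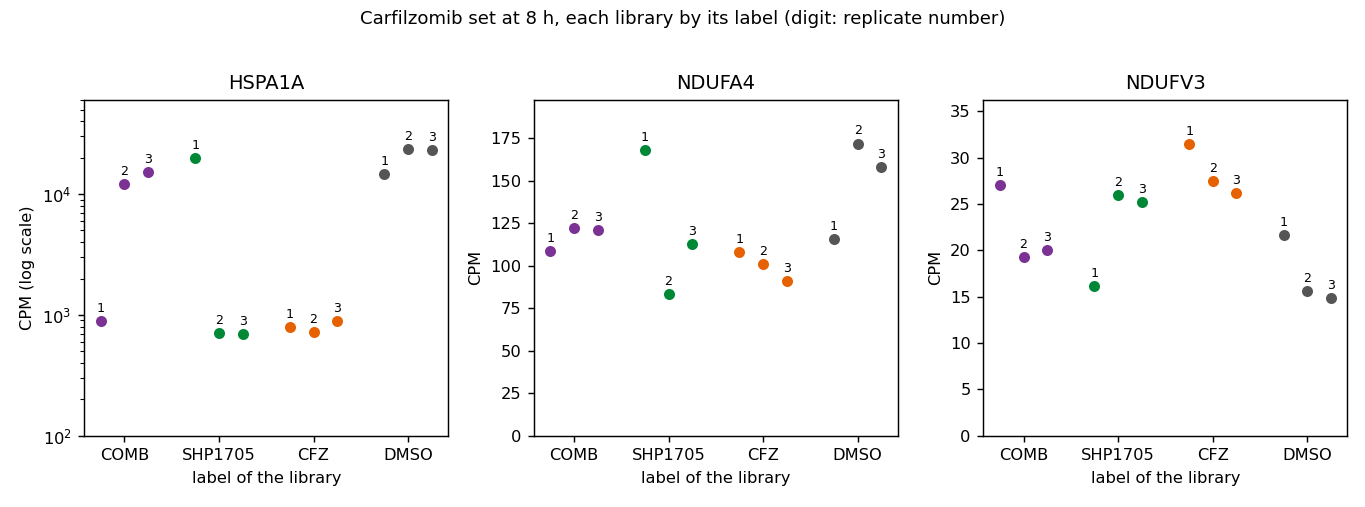
Level in CPM of HSPA1A (log axis), NDUFA4 and NDUFV3 in each of the 12 libraries of the carfilzomib set at 8 h, by labelled group. HSPA1A is at 892 CPM in 1 library labelled COMB and 12000 and 15100 CPM in the others, and at 19900 CPM in 1 library labelled SHP1705 and 693 and 705 CPM in the others.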

How the data were processed

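RNA was measured by polyA sequencing in 36 libraries of MDA-MB-231 cells. The authors deposited whole-number counts per gene in 3 tables, 1 for each set of 12 libraries. Per the submitters' processing notes, Trimmomatic, FastQC, HISAT2 and featureCounts were used with the build hg38; the sources used here give no versions, annotation or strand setting. Groups came from the sample labels, and 0 columns were left unused.

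A single fit per table held all 4 groups and 12 libraries. Genes were kept by filterByExpr and libraries scaled by TMM. Each contrast was tested on the counts by the quasi-likelihood test of edgeR 4.0.16 (with limma 3.58.1 in R 4.3.3), with Benjamini-Hochberg adjustment over all genes tested. An adjusted p under 0.05 is a call. Log2 fold changes use a prior count of 0.125 and carry standard errors. CPM were computed here from the deposited counts and TMM-scaled library sizes, and are not corrected for length, so levels are not compared between genes. Python 3.11.15 with pandas 2.3.3 and matplotlib 3.10.9 made the other tables and the figures. The scripts were tested on simulated counts.

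The members, gene lists and alternatives were chosen with earlier results of these data known. Named members are, for each contrast and complex, the called members with the highest and lowest log2 fold change, given non-overlapping groups and a mean of 5 CPM or more, plus a fixed set of members by role, and any member a result turns on. Up to 2 called genes are named per other list and contrast by p, and further ones were chosen after their values were seen. Transcript length is the median over protein-coding transcripts of GENCODE v29, and gene positions and promoters are RefSeq's on GRCh38.p14, matched by symbol for all 85 members (NDUFA4 is listed there as COXFA4). The counting annotation may differ from both. Replicate numbers were not used to pair libraries. The alternatives were total counts and relative log expression factors, no filter, DESeq2 1.42.0, a replicate block, the compared groups alone and each library left out. Fits without the libraries that stand apart, and with the length trend removed, were added after seeing the data.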

Additional observations from a re-analysis of the deposited data

Results flagged for a closer look

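In the MG132 set at 8 h, the effect of SHP1705 with MG132 differed from its effect without MG132, by the interaction term of edgeR's quasi-likelihood test, for 44 members. Among members named by rule the term was 0.68 for NDUFA4, 0.60 for COX6C, 0.56 for UQCRH, 0.42 for ATP5MJ, 0.40 for COX5B, 0.29 for COX7A2L, 0.24 for COX4I1, 0.24 for COX8A, 0.19 for UQCRC1 and 0.19 for ATP5F1B on the log2 scale. It was -0.12 for ATP5F1A and -0.21 for NDUFV3. Scaling by total counts turned the terms of COX7A2L, COX4I1, COX8A, UQCRC1 and ATP5F1B negative. Without the POSTN libraries the median of the term over the members was 0.22, beside 0.23 with them, in a fit that keeps 1 SHP1705 and 1 MG132 library. The part of that scaling and of the POSTN libraries in the result was not tested further.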

How the results depend on the processing

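The counts below are members called in the order SHP1705, inhibitor and COMB against DMSO, COMB against inhibitor, and interaction. Leaving out 1 library at a time gave 9 to 33, 0 to 0, 29 to 38, 31 to 44 and 39 to 50 in the MG132 set, 0 to 7, 0 to 8, 0 to 0, 0 to 0 and 0 to 6 for carfilzomib at 8 h, and 1 to 2, 6 to 15, 10 to 24, 0 to 5 and 0 to 0 at 24 h. Libraries of the same number deviated together by correlations of -0.09 to 0.15, -0.66 to 0.23 and -0.05 to 0.05 in the sets, so the numbers were not taken as pairs; with the replicate number as a block the counts were 29, 0, 33, 39 and 43, then 0 in all 5, then 1, 11, 19, 1 and 0.

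In the MG132 set, total counts gave 62 calls for COMB against DMSO and 57 for COMB against MG132, no filter gave 3 for MG132, and, chosen after seeing the data, removing the length trend gave 7 for SHP1705, while leaving out the POSTN libraries gave 2 for SHP1705 and 23 for COMB against MG132, with medians of -0.14 and 0.08, in a fit that keeps 1 SHP1705 and 1 MG132 library, each assumed to vary like the other groups. In the carfilzomib set at 8 h, carfilzomib had 4 calls with total counts, 4 with DESeq2, 0 with the block, 7 without the length trend and 9 with its groups alone, and the interaction had 1 with no filter. Leaving out SHP1705 1 and COMB 1 there gave 10, 12, 0, 1 and 12, and leaving out number 1 of each group 31, 35, 16, 4 and 29. At 24 h, SHP1705 had 2 with no filter and 2 with its groups alone, COMB against DMSO 29 with its groups alone, and COMB against carfilzomib 2 with no filter, 3 with DESeq2, 0 without the length trend and 0 with its groups alone. The causes were not tested.

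Directions reversed under total counts in the MG132 set, where the median log2 change of all genes became -0.31 for COMB against DMSO, -0.32 for COMB against MG132 and -0.34 for the interaction. For COMB against DMSO the values became -0.13 for COX7A2L and -0.18 for ATP5F1B. For COMB against MG132 they became -0.18 for UQCRC1, -0.01 for UQCRH, -0.14 for COX7A2, -0.12 for ATP5MG, -0.17 for COX4I1, -0.09 for COX5B, -0.17 for ATP5F1B and -0.12 for COX7A2L. For the interaction they became -0.15 for UQCRC1, -0.09 for COX8A, -0.09 for COX4I1, -0.14 for ATP5F1B and -0.04 for COX7A2L. Of all values recomputed for named genes, 3985 kept direction and side of the threshold, 132 lost the call, 65 gained it and 15 reversed. Depth limits the low members: ATP5F1E, at under 2 CPM, could show large changes only.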

Other observations

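Genes of the mitochondrial ribosome, which makes the subunits encoded by mitochondrial DNA, were listed beside the members. With SHP1705 alone at 8 h 0 of 77 rose and 9 fell (11.7%, beside 4.08% of all genes lower), and at 24 h 0 rose and 0 fell (beside 1.95% of all genes higher and 2.51% lower). COMB against DMSO had 21 higher and 24 lower in the MG132 set at 8 h (3 and 62 with total counts), beside 29.2% and 29.7% of all genes, and 22 higher and 3 lower in the carfilzomib set at 24 h, beside 13% and 14.3%, where carfilzomib alone had 15 higher and 4 lower, beside 10.1% and 11.4%.

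Levels of some members differed between tables in groups under DMSO, with no test across them. NDUFA2 read 15.9, 14.3 and 15.2 CPM in the MG132 set and 2.23, 2.29 and 2.72 CPM in the carfilzomib set at 24 h.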
